A study of Mus musculus with 4 samples.

Results

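The comparison described here is that of the 2 knee libraries of the study, 1 from Tamoxifen-injected and 1 from oil-injected Cbfb f/f;Aggrecan-CreERT mice, out of 4 libraries in all. Both carry floxed Cbfb on both alleles and a Cre recombinase, active only with tamoxifen (TMX), that is driven from the aggrecan gene, so that Cbfb can be deleted in cells that use this gene, mostly chondrocytes. The control had the same alleles and received the oil vehicle. The libraries therefore differ in TMX itself as well as in the deletion it induces, and the pair cannot tell these apart. By a legend of the study the mice were males aged 12 weeks, and by its methods TMX was given at 75 mg/kg per day for 5 days. The age at injection is given as 6 weeks in a legend and as 8 weeks in the methods. The strain background and the number of mice per library are not given in the sources used here. The tissue is labelled articular cartilage of the knee, and the notes on RNA extraction name osteoblasts. The study's discussion states that the knee samples held bone besides cartilage.

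Cbfb encodes core binding factor beta, the shared partner of the DNA-binding proteins Runx1, Runx2 and Runx3. It binds no DNA on its own but steadies the Runx proteins on their sites. Runx2 is the master regulator of osteoblasts and of the hypertrophy of growth plate chondrocytes, and Runx1 acts in chondrocytes and in blood formation. Articular cartilage is built from type II collagen, to which types IX and XI collagen are added, and from aggrecan held on hyaluronan by link protein. Its surface layer secretes lubricin, which keeps the joint sliding.

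The oil library held 34264456 counts on genes and the tamoxifen library 38228029. At least 10 counts over the pair were found for 21131 of 54838 identifiers, and these genes were described. Counts were scaled by TMM within the pair, 0.5 was added, and the log2 ratio of the tamoxifen over the oil library was taken. Each ratio has a 95% Clopper-Pearson interval, which covers counting error only. With 1 library a side there is no replicate error and no test, so every ratio below compares 2 libraries and not 2 conditions. A gene was said to rise or fall where its log2 ratio reached 1 or -1 and 0 lay outside its interval. Paired counts below are those of the oil and then of the tamoxifen library, and brackets give the log2 ratio and, where shown, the interval.

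In the tamoxifen library most collagens of the cartilage list, the matrilin Matn3, the haemoglobins, some osteoblast and osteoclast genes, and most keratins and mesothelial genes were lower. Skeletal muscle, fat, mitochondrially encoded protein and some superficial zone genes were higher, and so were several secreted antagonists of Wnt. By the rule, 1902 genes rose, 9.00% of those tested, and 1440 fell, 6.81%. The share that rose was 56.9% of the 3342 changed genes (Wilson 95% interval 55.2 to 58.6). Scaled by total counts, every ratio was 0.18 higher on the log2 scale, and 2603 genes rose and 1049 fell. This is a rise share of 71.3%, so the split between rises and falls depends on the scaling. A fall whose ratio is within 0.18 of the threshold is not one under that scaling. The median log2 ratio of all genes was 0.02 (quartiles -0.41 and 0.47), and 80.7% of genes lay within 1 of 0. Of the 13378 genes that reached 100 counts in either library, 876 rose and 366 fell, and of the 4102 with at least 2000 counts, 149 rose and 71 fell. The last are 3.63% and 1.73%, so calls were rarer at high counts, while narrow intervals there leave out 0 more easily. In the highest of 10 equal bins of scaled counts the median log2 ratio was -0.17. The shares over all genes given beside the lists below are not matched for level. A ratio of 4-fold or more was seen for 1160 genes, 596 up and 564 down. Of genes without a count in the oil library 147 had 10 or more in the tamoxifen library, and the reverse held for 77.

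**Figure D1:**
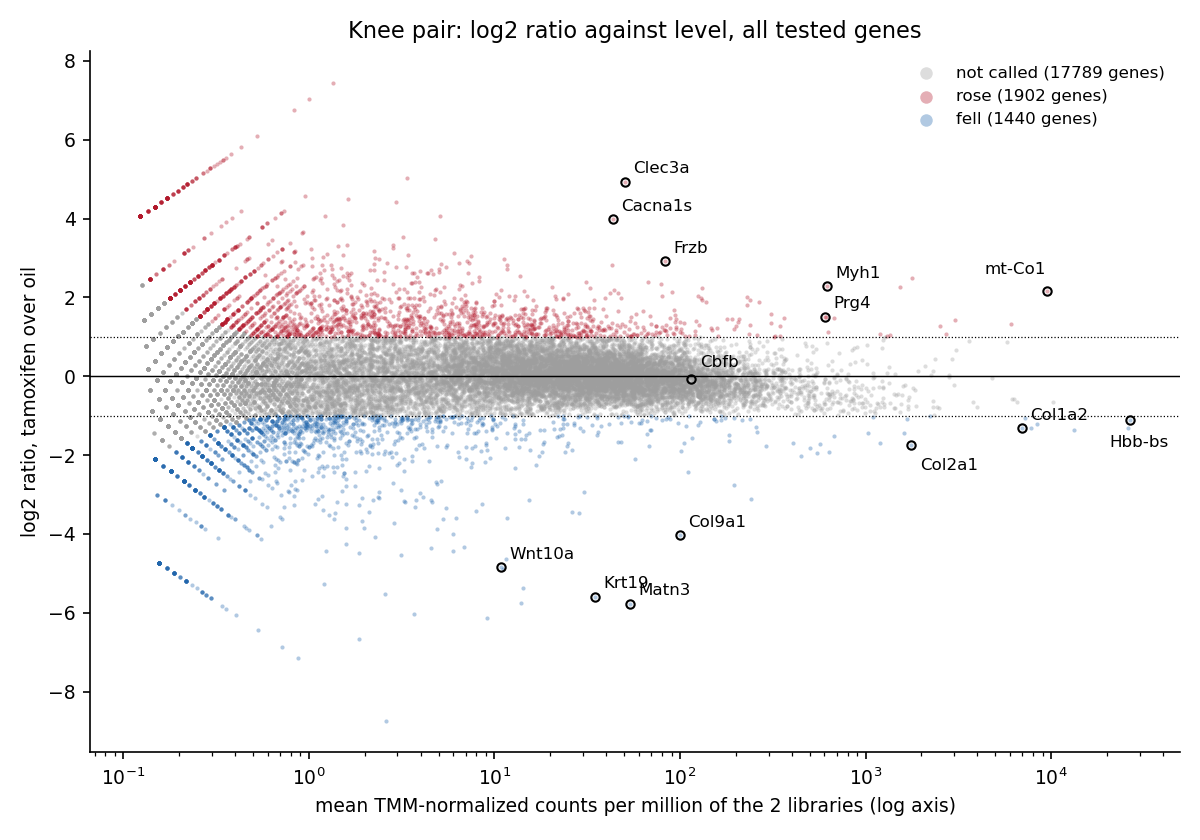
Each point is 1 of the 21131 genes tested, with its mean TMM-normalized CPM (counts scaled to a common library size) in the 2 knee libraries on the x axis (log) and its log2 ratio, tamoxifen over oil, on the y axis. Red points rose and blue points fell by the rule, dotted lines mark ratios of 1 in size, and named genes are circled. Clec3a stands highest of those circled at 4.93 and Matn3 lowest at -5.77, while Cbfb lies close to 0.

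The targeted gene differed little between the libraries. Cbfb (ENSMUSG00000031885) lies on chromosome 8 of GRCm39 from 105897291 to 105944633. Its counts were 3796 with oil and 4572 with tamoxifen, with a log2 ratio of -0.07 and an interval from -0.13 to -0.01. Counts over a whole gene cannot show whether an exon was removed, and cells that do not use the aggrecan gene also contribute Cbfb RNA, so this value neither checks nor contradicts the labels. Of its partners, Runx1 had 1853 and 2467 counts (0.07, -0.01 to 0.16), Runx2 had 1249 and 2238 counts (0.50, 0.40 to 0.60) and Runx3 had 971 and 1043 counts (-0.24, -0.36 to -0.11). None of the 4 reached the size for a change. Without the trend with length and GC of transcripts that is described at the end, Runx2 had 0.22. The mice are given as males, and the Y-linked Ddx3y had 2249 and 2974 counts. Xist, the RNA that coats the inactive X of females, was also present, and it fell from 469 to 130 counts (-2.19). The part of this in other ratios was not tested.

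Runx proteins bind DNA at a core of the letters TGTGGT. In the 250 bases before the RefSeq gene start (build GRCm38.p6), TGTGGT or its reverse complement ACCACA was found for 11.6% of the 13037 tested genes with an entry, for 12.6% of 1078 such genes that rose and for 15.8% of 587 that fell. Over all 27025 RefSeq windows of this length it was 14.2%. Overlapping matches would each have been counted. Of 25 changed bone and cartilage genes with 100 counts or more in either library and an entry, 7 had a match in the window and 18 had none. Windows are shown of the 4 genes with the highest counts among those with a match, so that they are not typical of the 25. Capitals mark the match, 5' to 3' on the strand of the gene.
Spp1: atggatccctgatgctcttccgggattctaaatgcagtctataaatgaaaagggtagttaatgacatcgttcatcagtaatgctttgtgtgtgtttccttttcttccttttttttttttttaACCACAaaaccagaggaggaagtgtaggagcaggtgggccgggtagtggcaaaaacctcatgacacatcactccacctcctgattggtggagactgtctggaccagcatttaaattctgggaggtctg
Mmp13: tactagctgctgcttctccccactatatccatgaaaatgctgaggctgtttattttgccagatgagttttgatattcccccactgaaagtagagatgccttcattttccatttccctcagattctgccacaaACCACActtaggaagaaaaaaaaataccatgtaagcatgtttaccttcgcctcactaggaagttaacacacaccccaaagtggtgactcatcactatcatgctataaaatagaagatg
Bglap: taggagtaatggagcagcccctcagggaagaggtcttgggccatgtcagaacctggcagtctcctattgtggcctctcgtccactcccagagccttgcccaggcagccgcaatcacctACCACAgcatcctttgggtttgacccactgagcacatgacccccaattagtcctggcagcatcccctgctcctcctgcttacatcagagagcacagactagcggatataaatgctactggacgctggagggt
Cilp: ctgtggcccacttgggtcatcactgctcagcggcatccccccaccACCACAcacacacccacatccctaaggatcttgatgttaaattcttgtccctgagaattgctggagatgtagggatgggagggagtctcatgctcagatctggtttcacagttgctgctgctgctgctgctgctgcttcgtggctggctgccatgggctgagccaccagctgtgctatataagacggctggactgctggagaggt
The windows are chr5:104434861-104435110, plus strand (Spp1), chr9:7272264-7272513, plus strand (Mmp13), chr3:88384467-88384716, minus strand (Bglap) and chr9:65264930-65265179, plus strand (Cilp). The match begins 128 bases before the start of Spp1, 118 before Mmp13, 132 before Bglap and 205 before Cilp. A match of 6 letters is a description and not a binding site. The first 3 of these genes were lower in the tamoxifen library and Cilp was higher, with the values given below.

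The rankings of rises and falls left out immunoglobulin and T cell receptor segments, among which a light chain V segment had 7.45. Genes with clone or predicted names or without a unique symbol were left out too. Of the other genes that reached 100 counts in either library, the largest rise was that of Clec3a, a C-type lectin of cartilage. Clec3a (ENSMUSG00000008874) lies on chromosome 8 of GRCm39 from 115144826 to 115152586. It had 102 and 3961 counts with oil and tamoxifen, a log2 ratio of 4.93 (4.66 to 5.24). Among the 15 largest rises so ranked were Cacna1s, the voltage sensor of skeletal muscle (166 and 3346 counts, 3.99), and Clcn1, its chloride channel (81 and 811 counts, 2.98). Others were the slow myosin Myh7 (8 and 229 counts, 4.42) and the sarcomere proteins Myoz3 (3.12) and Mybph (3.04). The potassium channel Kcna3 (3.08), the kinases Map3k15 (3.26) and Stk32b (3.06), Itih6 (3.48), Otoa (3.33), Tm4sf19 (3.33), Nynrin (3.31) and Prob1 (4.06) were also among them. Several of these had few counts in the oil library, where the intervals were wide, as for Nynrin (8 and 106 counts, 2.36 to 4.64).

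With at least 2000 counts required, the rises after Clec3a and Cacna1s were led by Frzb, a secreted Wnt antagonist first known from cartilage. Frzb lies on chromosome 2 of GRCm39 from 80242313 to 80278304. It had 626 counts in the oil library and 5979 in the tamoxifen library (2.92, 2.80 to 3.04). Timp3, an inhibitor of metalloproteases that is held in the matrix, rose from 692 to 4596 counts (2.39). Tubb1, the beta-tubulin of platelets, rose from 341 to 3075 counts (2.83), and Myoc, the secreted protein myocilin, from 842 to 5349 counts (2.33). The others of the 10 largest rises at this level were the muscle genes Myo18b (2.38), Myh1 (2.29) and Atp2a1 (2.27) and the mitochondrial mt-Nd5 (2.48).

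The 15 largest falls included epithelial and mesothelial genes and the cartilage matrilin Matn3. Matn3 (ENSMUSG00000020583), a protein that links cartilage fibrils, lies on chromosome 12 of GRCm39 from 8997929 to 9022028. It had 3384 counts in the oil library and 78 in the tamoxifen library, a log2 ratio of -5.77 (-6.12 to -5.45). Krt19, a keratin of simple epithelia and mesothelium, fell from 2192 to 57 counts (-5.59). Wt1, a transcription factor of mesothelium and kidney, fell from 900 to 27 counts (-5.37), and Upk3b, a uroplakin that mesothelium also makes, fell from 694 to 29 counts (-4.90). The ligands Wnt10a (672 and 29 counts, -4.85) and Rspo4 (193 and 10 counts, -4.54), an R-spondin that strengthens Wnt signals, were among them. So were the epithelial trafficking protein Mal2 (578 and 10 counts, -6.12), the polarity protein Crb2 (-6.04), the transcription factor Myrf (876 and 20 counts, -5.76), Krt8 (-4.63), the cadherin Cdh3 (-4.49), mesothelin (Msln, -4.35), R3hdml (-5.51) and Serpina1a (-4.43), an antitrypsin with near-identical copies whose reads may be shared. Rpp25, a subunit of RNase P, had 119 and 1 counts, so that its ratio of -6.66 has an interval from -12.55 to -4.73.

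With at least 2000 counts required, the 10 largest falls held the cartilage genes Matn3, Col9a1, Col9a2, Col9a3 and Col11a2, the osteoblast gene Bglap and Krt19, which are given with their lists. The other falls among them were Ppa1, a pyrophosphatase, from 5989 to 1412 counts (-2.42), Mt3, a metallothionein, from 3002 to 881 counts (-2.11), and Mgp, a matrix protein that inhibits calcification, from 23296 to 7266 counts (-2.02).

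**Figure D2:**
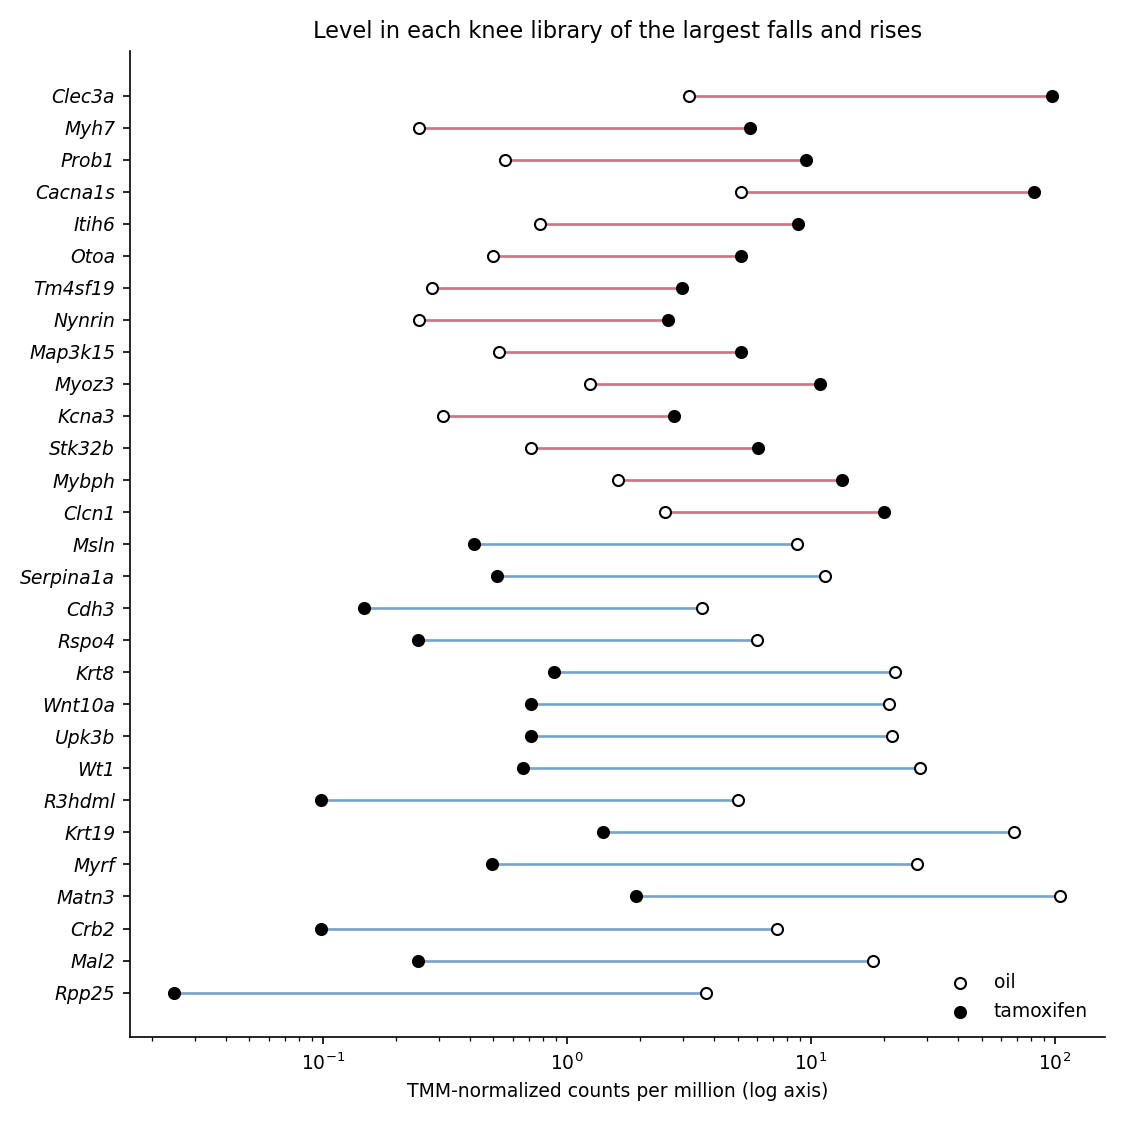
Level of the largest falls and rises, as ranked in the text, among changed genes with 100 counts or more in either library. Levels are TMM-normalized CPM on a log axis. Open circles are the oil library and filled circles the tamoxifen library, with a red line for a rise and a blue line for a fall. Clec3a went from 3.17 to 97.3 CPM and Matn3 from 105 to 1.92.

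Of 10 cartilage collagen genes, 7 fell, none rose, and the median log2 ratio was -1.41, against 6.81% fallen and a median of 0.02 over all genes tested. Col2a1, the main fibril collagen of cartilage, had 87367 counts in the oil library and 33204 in the tamoxifen library (-1.74, -1.75 to -1.72). The type IX chains that coat this fibril were lower still. Col9a1 (chromosome 1 of GRCm39 from 24216691 to 24291765) fell from 6059 to 466 counts (-4.04, -4.18 to -3.90), Col9a2 from 13983 to 2046 counts (-3.11) and Col9a3 from 10984 to 2042 counts (-2.77). The type XI chains, which set fibril width, fell as well, with Col11a2 at -1.91 (32214 and 10822 counts) and Col11a1 at -1.09 (10408 and 6186 counts). Col27a1 was the 7th, at the threshold with -1.01. The 3 members that did not pass were the type VI chains, from 0.18 to 0.59, which surround chondrocytes but are made by many connective tissues. Summed over the list, these genes took 0.517% of the counts of the oil library and 0.199% of those of the tamoxifen library. In bulk RNA, fewer cells of a type and less RNA per cell cannot be told apart, here and in all that follows.

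The other cartilage matrix genes did not move as one. Of 16, 7 fell and 1 rose, where 6.81% of all genes fell and 9.00% rose, and the median was -0.26. Besides Matn3, which led them, the link protein Hapln1 fell from 5614 to 2398 counts (-1.57). Acan, the aggrecan gene whose promoter drives the Cre, had 858 and 1387 counts (0.35, 0.23 to 0.48) and did not pass the rule. Comp, which joins collagen fibrils, had 22150 and 29134 counts (0.06, 0.03 to 0.08), Chad had 13390 and 27245 counts (0.69) and Cytl1 had 12339 and 26383 counts (0.76). Cilp, a protein of the middle zone of articular cartilage, rose from 2831 to 8368 counts (1.22, 1.16 to 1.29), and its window is the fourth sequence above. As a share of counts this list went from 0.255 to 0.307%, while its median ratio lay below 0. Shares of counts are given without TMM scaling throughout. On unscaled counts every log2 ratio is 0.18 higher, so part of this gain comes from the scaling.

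Among 12 chondrocyte regulators 4 fell and 1 rose, against 6.81% and 9.00% over all genes. Of their intervals 6 lay above 0 and 5 below, against 31.9% and 29.7%, and the median of 0.15 turned to -0.05 with the trend removed, so the list has no direction. The riser was Gdf5, a growth factor of joints (10 and 30 counts, 1.20), named after its values were seen. Sox9, the transcription factor that sets chondrocyte identity, fell from 1554 to 947 counts (-1.05, -1.17 to -0.94). Its partner Sox6 had 2141 and 2881 counts (0.09). Pth1r, the receptor for PTHrP, fell from 7117 to 4469 counts (-1.01, -1.07 to -0.96), and Foxa3, a forkhead factor of hypertrophic chondrocytes, from 84 to 18 counts (-2.53). The ratios of Sox9 and Pth1r are close to the threshold. Under total count scaling, 0.18 higher, both lie inside it. The defining genes of cartilage named above were present in both libraries, as the label of the tissue says, together with those of bone, marrow, muscle and fat described next.

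Of 15 genes of growth plate hypertrophy and Hedgehog signaling, 5 fell and 1 rose, where 6.81% of all genes fell and 9.00% rose. Those that fell were Ihh, the Hedgehog ligand of these cells (-1.59, named after its values were seen), and 4 that follow. They include Col10a1, the collagen of hypertrophic cartilage (12199 counts in the oil library and 5770 in the tamoxifen library, -1.42), and the collagenase Mmp13 (27871 and 10772 counts, -1.71, -1.74 to -1.68). Spp1, osteopontin, fell from 75953 to 35562 counts (-1.43, -1.45 to -1.42) and Foxa2 fell from 209 to 74 counts (-1.83). Gli1, a target of Hedgehog signals, rose from 98 to 266 counts (1.10, 0.76 to 1.45), and under trend removal its ratio was 0.89, inside the threshold. Alpl, the alkaline phosphatase of mineralizing cells, had 6627 and 8172 counts (-0.04, -0.08 to 0.01). The median of the list was -0.04 and turned to 0.14 under total count scaling, so it has no direction.

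Of 12 superficial zone and synovial lining genes 3 rose and none fell, against 9.00% risen and 6.81% fallen over all genes, and the median was 0.63. Prg4, which encodes lubricin, had 10157 counts in the oil library and 36604 in the tamoxifen library (1.51, 1.48 to 1.54). Htra4, a secreted serine protease, rose from 929 to 3543 counts (1.59). The adhesion molecules Vcam1 (6982 and 6060 counts, -0.54) and Cd44 (8260 and 7356 counts, -0.51) of the synovial lining did not pass the rule. The list took 0.0880% of counts in oil and 0.160% in tamoxifen. Among 10 tendon and ligament genes 2 rose and none fell, read against the same shares, with Ogn, the small proteoglycan osteoglycin, at 713 and 2860 counts (1.66) and the fibrillar proteins Thbs4 (0.89) and Aspn (0.59) short of it.

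Of 20 osteoblast and osteocyte genes 5 fell and 3 rose, against 6.81% fallen and 9.00% risen over all genes, with a median of 0.04. Bglap, osteocalcin of the mature osteoblast, had 27984 counts in the oil library and 9156 in the tamoxifen library (-1.95, -1.99 to -1.92), and its near-identical neighbour Bglap2 had 14463 and 5407 counts (-1.76), a pair whose reads the counting could have shared. Col1a1, the main collagen of bone, fell from 315688 to 191508 counts (-1.06), a ratio that lies inside the threshold under total count scaling, and Col1a2 fell from 318391 to 161154 counts (-1.32). Ibsp, bone sialoprotein, had 35722 and 44074 counts (-0.04, -0.06 to -0.02). Osteocyte genes stood on both sides. Dmp1, a matrix protein of osteocytes, fell from 6883 to 3960 counts (-1.14). Sost, the Wnt antagonist sclerostin, rose from 423 to 1640 counts (1.61, 1.46 to 1.77). Fgf23, the phosphate hormone that osteocytes secrete, had 0 and 35 counts, at least 9.22-fold higher against a floor of 3 counts in the oil library. Dmp1 and Fgf23 were named after their values were seen. The list took 1.22% of the oil counts and 0.730% of the tamoxifen counts.

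In 16 osteoclast genes 5 fell and none rose, with a median of -0.28, against 6.81% fallen over all genes. Ctsk, the collagen-cutting cathepsin K, had 48315 counts in the oil library and 22701 in the tamoxifen library (-1.43, -1.45 to -1.41). Acp5, the tartrate-resistant phosphatase, fell from 32394 to 14273 counts (-1.52), and Ocstamp, needed for cell fusion, from 446 to 167 counts (-1.75). The gelatinase Mmp9 (34001 and 34345 counts, -0.32) and the carbonic anhydrase Car2 (45998 and 36050 counts, -0.69), which neutrophils and red cells also make, did not reach the rule. Of the 6 genes that steer osteoclasts 1 rose, against 9.00% of all genes, Tnfrsf11b, the decoy receptor osteoprotegerin, with 619 and 1571 counts and a ratio at the threshold (1.00, 0.87 to 1.14). The others did not pass, and the lowest of them had -0.93. Csf1 (-0.30), Csf1r (0.22) and Traf6 (-0.06) were among them.

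Matrix proteases and their inhibitors had 2 falls and 1 rise in 17, near the 15.8% of all genes that changed. Timp1 fell from 3404 to 1263 counts (-1.77, -1.86 to -1.68) while Timp3 rose, as given above. Mmp14, the membrane-bound activator of Mmp2, fell from 9536 to 5569 counts (-1.12), and Mmp2 itself had 3814 and 7212 counts (0.58). Of 16 fibrous matrix genes none rose and 2 fell, those of type I collagen, against 6.81% of all genes. Col3a1, the collagen of loose connective tissue, had 23845 and 52435 counts (0.80), and Sparc, a matrix protein of bone and fibroblasts, 258913 and 206786 counts (-0.66).

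**Figure D3:**
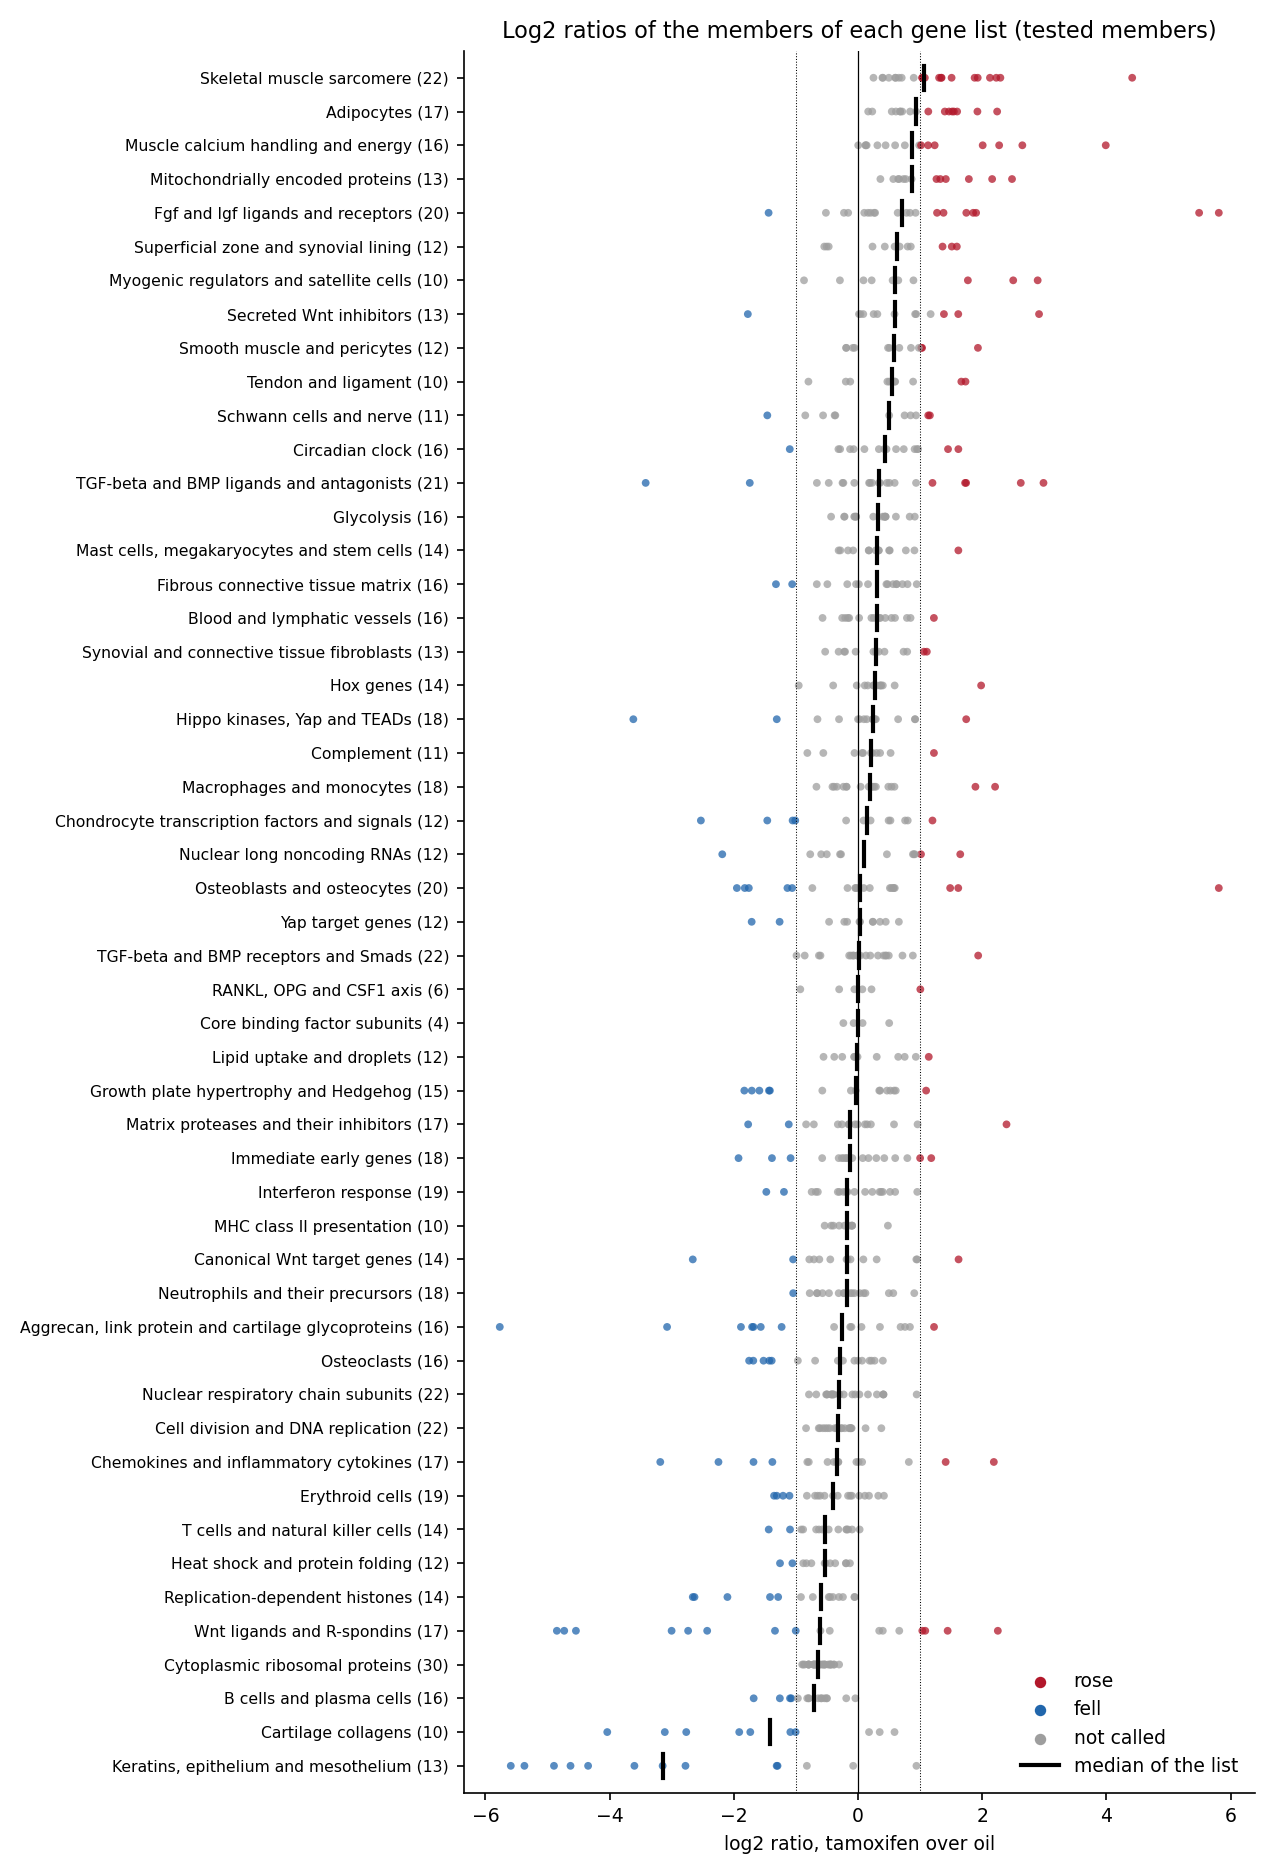
Log2 ratio, tamoxifen over oil, of every tested member of the 51 gene lists (x axis), with 1 row per list ordered by its median (black bar) and the number of tested members in brackets. Red members rose, blue members fell and grey members did neither, and dotted lines mark ratios of 1 in size. Sarcomere genes have the highest median (1.06) and the list of keratins, epithelium and mesothelium the lowest (-3.15).

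Skeletal muscle genes were the list with the highest median. Of 22 sarcomere genes 13 rose, none fell and all 22 had an interval above 0, where 9.00% of all genes rose and 31.9% had such an interval. Acta1, skeletal actin, had 81310 counts in the oil library and 191596 in the tamoxifen library (0.90, 0.89 to 0.91), just short of the rule. The fast myosins were unequal, with Myh4 at 1.08 (56406 and 150449 counts), or 0.78 with the trend removed, and Myh1 at 2.29 (6724 and 41687 counts, 2.26 to 2.33), and the slow Myh7 at 4.42. Troponins lay at the low end, such as Tnni2 at 0.25 (61588 and 92584 counts) and Tnnt3 at 0.66 (76714 and 153139 counts). Myosin genes share stretches of sequence and reads may be split among them. The list took 1.24% of the oil counts and 2.63% of the tamoxifen counts.

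Calcium handling and energy genes of muscle rose in 7 of 16 cases with none fallen and a median of 0.87, against 9.00% risen over all genes. Atp2a1, the calcium pump of fast fibres, rose from 16982 to 103851 counts (2.27, 2.25 to 2.30). Pvalb, the calcium buffer parvalbumin, had 70920 and 98819 counts (0.14, 0.13 to 0.15), and Ckm, the muscle creatine kinase, 27459 and 68749 counts (0.98), just short of the rule. Of 10 tested regulators of muscle formation 3 rose and none fell, read against the same share. These included the perinatal myosin Myh8 (97 and 420 counts, 1.77), while Myod1, the determination factor, had a log2 ratio of 0.89 (0.59 to 1.21) and Myf6 595 and 877 counts (0.22).

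Fat genes were higher as well. Of 17 tested adipocyte genes 8 rose, none fell and all 17 had an interval above 0, with a median of 0.94, against 9.00% risen and 31.9% with such an interval over all genes. Plin1, the coat of the fat droplet, had 367 counts in the oil library and 2197 in the tamoxifen library (2.24, 2.08 to 2.41), and Scd1, which desaturates fatty acids, rose from 6227 to 21747 counts (1.46). Adipsin, Cfd, had 7873 and 19052 counts (0.94) and the lipid carrier Fabp4 12106 and 17159 counts (0.16). Of 12 lipid uptake and droplet genes 1 rose, near the 9.00% of all genes, and the median was -0.02. Of their intervals 5 lay above 0 and 3 below, against 31.9% and 29.7% over all genes. The riser was Slc27a1 (665 and 1854 counts, 1.14), which had 0.86 with the trend removed. Acsl1 had 0.75, Cd36 0.65 and Lpl 0.30, while Plin2, a droplet coat of many cells, had -0.38 (3187 and 3093 counts). Adipocyte genes took 0.115% of the oil and 0.233% of the tamoxifen counts. Muscle and fat RNA thus moved alongside the fall of the cartilage collagens, and their part in that fall was not tested.

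The globins were lower, and most other red cell genes differed less. In 19 tested erythroid genes 4 fell and none rose, with a median of -0.40, against 6.81% fallen over all genes, and the 4 were the adult globins. Hba-a1 had 1190959 counts in the oil library and 608385 in the tamoxifen library (-1.31) and Hbb-bs had 1172358 and 689964 counts (-1.10). Hba-a1 and Hba-a2 (612698 and 303667 counts, -1.35) are near-identical, as are Hbb-bs and Hbb-bt (-1.21), so that the counts of each pair are better read as a sum. Alas2, the first enzyme of haem synthesis in red cells, had 11480 and 16418 counts (0.18), and Slc4a1, the anion exchanger of their membrane, 41388 and 48003 counts (-0.13). The haemoglobins together took 9.78% of the oil library and 4.73% of the tamoxifen library. With the length trend removed only 1 of the 4 stayed past the rule, Hba-a2 at -1.03. An identifier with no symbol in the annotation, ENSMUSG00000106106, was also among the 10 most abundant, with 356973 and 181030 counts (-1.32).

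**Figure D4:**
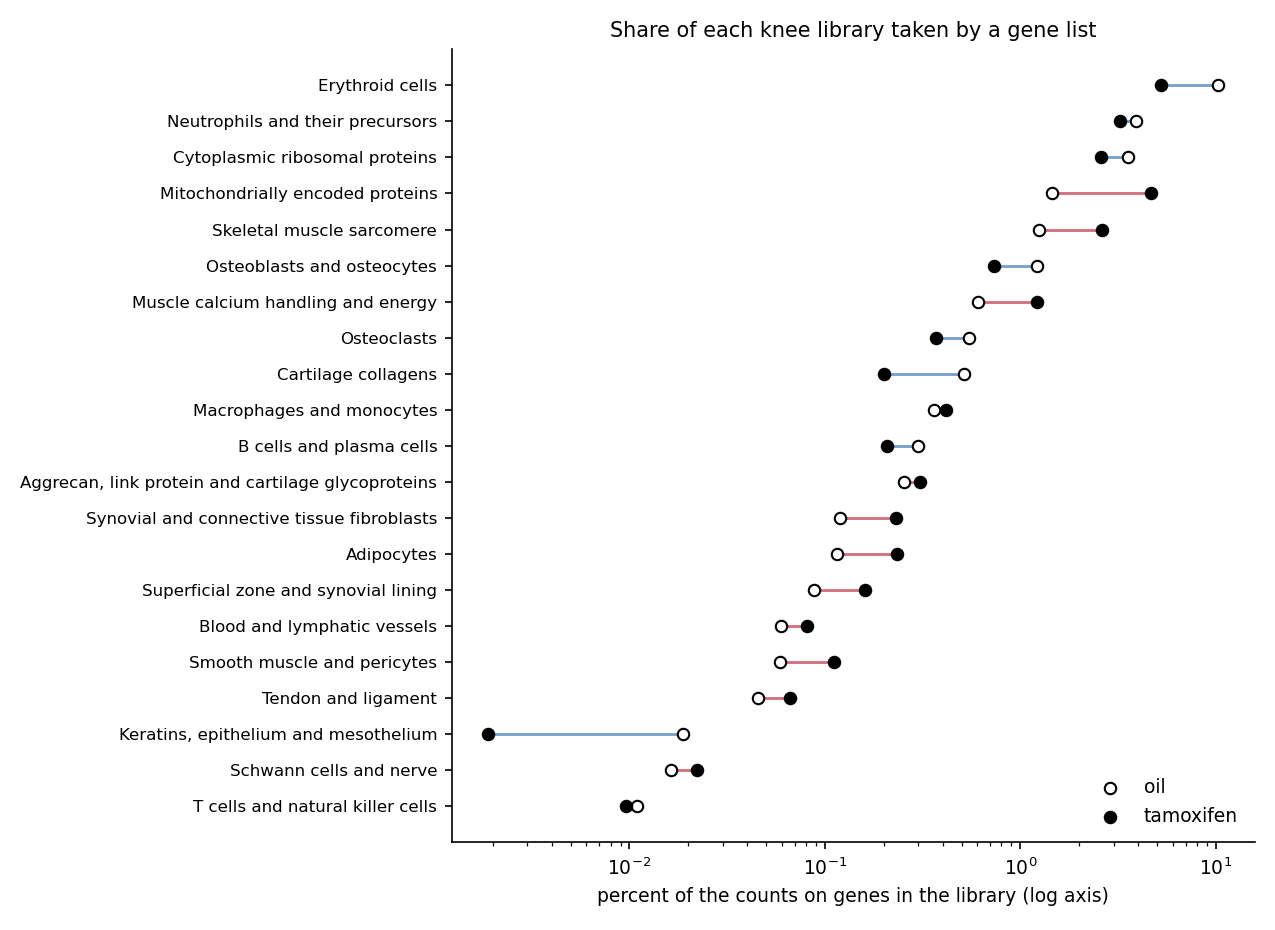
Percent of all counts on genes, without TMM scaling, taken by the summed genes of 21 lists, on a log axis. Open circles are the oil library and filled circles the tamoxifen library. Red lines mark a share higher in tamoxifen and blue lines a lower one. Erythroid genes went from 10.3 to 5.21%, sarcomere genes from 1.24 to 2.63% and mitochondrially encoded protein genes from 1.45 to 4.66%.

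White cell lists differed in kind. Of 18 neutrophil genes 1 fell, near the 6.81% of all genes, and none rose, and their summed share was 3.89% in oil and 3.23% in tamoxifen. S100a9 had 400648 counts in the oil library and 321621 in the tamoxifen library (-0.66) and Ngp, a granule protein of precursors, 157919 and 192205 counts (-0.06). Retnlg was the member that fell, from 47321 to 29041 counts (-1.04), and with the trend removed it had -0.55. Of 18 macrophage genes 2 rose, near the 9.00% of all genes, among them Vsig4, a complement receptor of resident macrophages (73 and 429 counts, 2.21, 1.85 to 2.59), while the abundant Lyz2 had 89140 and 116131 counts (0.04) and C1qa 6314 and 5022 counts (-0.67).

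In 16 tested B lineage genes 4 fell, none rose and 14 had an interval below 0, with a median of -0.72, where 6.81% of all genes fell and 29.7% had such an interval. Vpreb3, of the precursor B cell, had 2362 counts in the oil library and 932 in the tamoxifen library (-1.68, -1.79 to -1.57), and the constant genes Igkc (46680 and 33496 counts, -0.82) and Ighm (14650 and 12351 counts, -0.59) did not reach the rule. A look at symbol families, chosen after values were seen, gave 84 heavy chain V segments with 10 or more counts. Of these 57 rose and none fell, against 9.00% and 6.81% over all genes, and their summed counts were 1524 in oil and 7148 in tamoxifen. Of 83 light chain V segments 22 rose and 4 fell, read against the same shares, with 5375 and 10943 summed counts. A segment could pass the minimum through the tamoxifen library alone, so that these counts describe the segments that passed and support no shift. V segments resemble each other and their reads can be split. Of 14 T and natural killer cell genes 2 fell, against 6.81% of all genes, with Gzma, granzyme A, at 279 and 130 counts (-1.44), and 10 antigen presentation genes of MHC class II held no change, with Cd74, the most abundant, at -0.30. Also chosen after values were seen, 6 eosinophil granule genes fell, against 6.81% of all genes, among them the major basic protein gene Prg2 (25118 and 9040 counts, -1.81) and, at the threshold, the ribonuclease gene Ear2 (-1.01). With the trend removed Ear2 had -0.57, and under total count scaling it also lies inside the threshold.

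Of 17 chemokine and inflammation genes 4 fell and 2 rose, with a median of -0.35, where 6.81% of all genes fell and 9.00% rose. Ptgs2, the inducible cyclooxygenase, had 269 counts in the oil library and 37 in the tamoxifen library (-3.18, -3.74 to -2.70). Nos2, the inducible nitric oxide synthase, rose from 10 to 60 counts (2.19, 1.27 to 3.38). Cxcl12, the chemokine that holds blood precursors in marrow, had 30909 and 31386 counts (-0.32). In 19 tested interferon response genes 2 fell and none rose, read against the same shares. Isg15, a ubiquitin-like protein, fell from 2763 to 1529 counts (-1.19), though with the trend removed it had -0.88, and Ifi44 had 60 and 27 counts (-1.48, -2.20 to -0.81). Rsad2 had 11059 and 8933 counts (-0.65). The complement list held 1 rise in 11, near the share of all genes, the receptor C3ar1 (105 and 311 counts, 1.22).

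Keratins and epithelial or mesothelial genes formed the list with the lowest median, -3.15, with 10 of 13 tested members fallen, against 6.81% of all genes, and none risen. Those that fell ranged from -5.59 (Krt19) to -1.30 (Krt10). Krt8 (714 and 36 counts, -4.63) and Krt18 (695 and 72 counts, -3.60) pair in simple epithelia, and Krt14 (262 and 37 counts, -3.15) and Krt5 (89 and 16 counts, -2.78) in the basal layer of skin. Epcam, a general marker of epithelium, did not follow them, with 85 and 102 counts (-0.08, -0.51 to 0.36). Nor did every keratin. Of 23 keratin genes tested, looked at after values were seen, 16 fell and 2 rose, Krt79 (5 and 22 counts) and Krt75 (0 and 10 counts), and Krt80 had 325 and 601 counts (0.55) and Krt7 32 and 72 counts (0.82). The list took 0.0188% of the oil library and 0.00190% of the tamoxifen library. No tested member was at 0 in the tamoxifen library. The part of these transcripts in the ratios of other genes was not tested.

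Vessel, smooth muscle, nerve and fibroblast lists are read against 9.00% of all genes risen and 6.81% fallen. Of 16 vessel genes 1 rose, a call lost with the trend removed, and none fell, with Vwf at 2969 and 6486 counts (0.79) and Pecam1 at 2338 and 3435 counts (0.22). Smooth muscle and pericyte genes held 3 rises in 12, or 2 with the trend removed, led by Myh11, smooth muscle myosin (171 and 827 counts, 1.93). Among 11 tested Schwann cell and nerve genes 2 rose and 1 fell. The fall was that of Ncmap, a protein of myelin (612 and 281 counts, -1.46), and Sox10, the Schwann cell regulator, rose from 22 to 63 counts (1.16). Of 13 fibroblast genes 2 rose, Gsn, the actin-severing gelsolin (24863 and 65599 counts, 1.06), and Cd248 (322 and 879 counts, 1.11). In 14 mast cell, platelet and stem cell genes 1 rose, Hlf (225 and 874 counts, 1.62).

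Wnt ligands and their secreted modifiers had wide ratios. Of 17 tested ligands and R-spondins 8 fell and 4 rose, with a median of -0.61, against 6.81% fallen and 9.00% risen over all genes. With the trend removed 2 of the list rose. Wnt10a and Rspo4 were named above. Wnt4 fell from 1039 to 520 counts (-1.34, -1.49 to -1.18), while Rspo2 rose from 59 to 358 counts (2.25, 1.86 to 2.68). Wnt5a had 185 and 309 counts (0.40) and Wnt5b 389 and 359 counts (-0.46). In 13 secreted inhibitors, read against the same shares, 3 rose, Frzb, Sost and Sfrp5 (255 and 843 counts, 1.38), and Notum, an enzyme that strips the lipid from Wnt proteins, fell from 393 to 145 counts (-1.77). Wif1, an inhibitor of the cartilage surface, had 3224 and 5062 counts (0.31, 0.25 to 0.38). Of 14 canonical target genes 2 fell and 1 rose, also read against those shares, with Lef1, a transcription factor of the pathway, fallen from 475 to 291 counts (-1.05) and Nkd1, a feedback inhibitor, risen from 57 to 223 counts (1.62). Myc had 1658 and 1362 counts (-0.62). The median of the targets, -0.18, turned to 0.01 under total count scaling. Sfrp5 was named after its values were seen.

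In the TGF-beta and BMP family, the 2 lists were counted apart. Of 21 ligands and antagonists 5 rose and 2 fell, and of 22 receptors, Smads and Id genes 1 rose and none fell, against 9.00% risen and 6.81% fallen over all genes. In the first list 13 intervals lay above 0 and 6 below, against 31.9% and 29.7% over all genes. Bmp5 (39 and 307 counts, 2.62) and Bmp6 (218 and 913 counts, 1.72), ligands of BMP receptors, were among the rises and were named after their values were seen. Gdf10, a further ligand of the family, had 828 and 2003 counts (0.93). Gdf6, a growth factor of joints, fell, with 469 counts in the oil library and 55 in the tamoxifen library (-3.42, -3.86 to -3.03). Bmpr1b, the receptor at which Gdf5 acts, rose from 18 to 89 counts (1.93). Tgfb1 had 9524 and 10232 counts (-0.24, -0.28 to -0.20), and Id3, a target of BMP signals, 5782 and 4034 counts (-0.86).

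Of 18 Hippo pathway genes 2 fell and 1 rose, near the 15.8% over all genes, and the median was 0.24. Sav1, the scaffold of the Hippo kinases, rose from 285 to 1208 counts (1.74, 1.56 to 1.94), and Wwc1, which sits upstream of them, fell from 315 to 32 counts (-3.62, -4.21 to -3.11). The kinase Stk4 had 3317 and 4197 counts (-0.00, -0.07 to 0.07). In 12 Yap target genes 2 fell, where 6.81% of all genes did, among them Ankrd1 (905 and 349 counts, -1.71), and the most abundant target, Ccn2, had 11201 and 10259 counts (-0.47). Of 20 Fgf and Igf genes 7 rose and 1 fell, against 9.00% and 6.81% over all genes. Igfbp5, a binding protein of matrix, rose from 6535 to 19976 counts (1.27, 1.23 to 1.31), which was 0.99 with the trend removed. Fgf2 rose from 95 to 451 counts (1.90), and Igfbp2 fell from 333 to 155 counts (-1.44).

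All 22 cell division genes stayed inside the rule, though 20 had an interval below 0, against 29.7% of all genes at any level. Among the 20 were Mki67 (20265 and 23134 counts, -0.15) and Pcna (13992 and 11419 counts, -0.63). Of 12 heat shock genes 2 fell, against 6.81% of all genes, among them Hspa1b (582 and 308 counts, -1.26), which shares its sequence with Hspa1a, and Hsp90ab1 had 68462 and 51462 counts (-0.75). The 4 metallothionein genes counted, a family of metal-binding proteins looked at after values were seen, all fell, with Mt1 at 9007 and 3623 counts (-1.65). Immediate early genes, which answer stimuli and handling within minutes, had 3 falls and 2 rises in 18, against 6.81% and 9.00% over all genes, and a median of -0.14 that turned to 0.04 under total count scaling, with Dusp1, a phosphatase, risen from 1259 to 3608 counts (1.18) and Fosl1, a partner of Jun, fallen from 91 to 30 counts (-1.92). In 16 clock genes 3 changed, against 15.8% of all genes. Bmal1 fell from 361 to 213 counts (-1.10) and Hlf and Per2 rose, while Dbp (1387 and 3301 counts, 0.91) and Tef (2138 and 5291 counts, 0.97) lay just inside the rule. The time of day of collection is not given in the sources used here.

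Mitochondrially encoded and nuclear genes of the respiratory chain parted. Of 13 protein genes encoded by the mitochondrion 6 rose, none fell and all had an interval above 0, with a median of 0.86. Over all genes 9.00% rose and 31.9% had such an interval. mt-Co1, a core subunit of cytochrome oxidase, had 111334 counts in the oil library and 629597 in the tamoxifen library (2.16, 2.15 to 2.17), and mt-Nd1 had 131989 and 303715 counts (0.86). Together the 13 took 1.45% of the oil counts and 4.66% of the tamoxifen counts. The 2 mitochondrial ribosomal RNAs did not pass the rule and had a median of -0.08. Mitochondrial genes adjoin or overlap each other on both strands, and use of strand in the counting is not stated. The 22 nuclear subunits had no change and a median of -0.30, with Cox4i1 at 28880 and 22921 counts (-0.67) and Atp5f1b at 26571 and 44527 counts (0.41). In 16 glycolysis genes none passed the rule, and Gapdh, a common reference gene that muscle also makes in bulk, had 27611 and 65831 counts (0.91).

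The 30 cytoplasmic ribosomal protein genes of the list lay below 0. None passed the rule, all 30 had an interval below 0, where 29.7% of all genes did, and they spanned -0.90 (Rplp2, 64211 and 43555 counts) to -0.30 (Rpl4, 44416 and 45500 counts). Over all 82 such genes tested, a family looked at after values were seen, the range was wider, from -1.89 to 1.09, with 1 risen, 3 fallen and 79 intervals below 0. The transcripts of the list are short, with a median of 1117.5 bases. Of 14 histone genes, most of them tied to DNA replication, 5 fell, against 6.81% of all genes, among them H3c1 (47 and 9 counts, -2.66, -3.94 to -1.68), and H1f2 had 7051 and 7206 counts (-0.31). In 12 long noncoding RNAs 2 rose and 1, Xist, fell, where 9.00% and 6.81% of all genes did. H19, an imprinted RNA that is high in fetal tissue, rose from 978 to 3875 counts (1.65, 1.55 to 1.75), and Malat1, which is abundant in nuclei, had 43606 and 45641 counts (-0.27). Among 14 tested Hox genes 1 rose, near the share of all genes, Hoxa13 (16 and 82 counts, 1.98), of the outer limb, while Hoxc10 (0.40) and Hoxa10 (0.25) did not pass.

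The log2 ratio followed transcript length across the whole transcriptome. In 10 equal bins of length, the median rose from -0.35 in the shortest (median 427 bases) to 0.23 in the longest (7980.5 bases), a difference of 0.59. Over 20829 genes with a length, Spearman's rho was 0.25, a description across genes, which are not replicates. With at least 100 counts it was 0.34 over 13314 genes. For GC content, over all genes with a length, it was 0.03. In the shortest bin 15.8% of genes fell and 9.12% rose, and in the longest 2.45% fell and 10.9% rose. A trend of the same direction stood at low, middle and high expression, from -0.30 to 0.28, from -0.49 to 0.33 and from -0.49 to 0.19 between the outer bins. Gene types did not all follow length. Processed pseudogenes, at a median length of 579 bases, had a median ratio of -0.34, which is also the ratio of a gene with equal counts in both libraries. Immunoglobulin V segments that passed the minimum, at 360 bases, had 1.09.

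**Figure D5:**
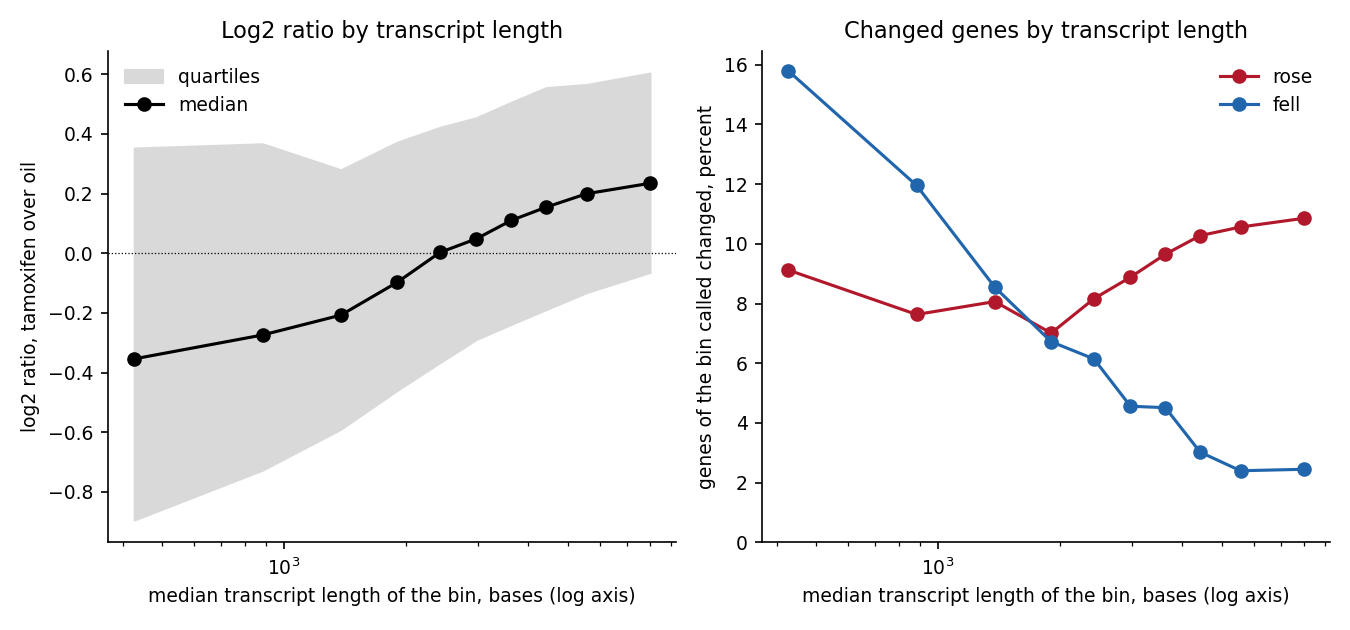
Left, median log2 ratio (tamoxifen over oil) with quartiles (grey band) in 10 equal bins of canonical transcript length, plotted at each bin's median length in bases on a log axis. Right, percent of the genes of each bin that rose (red) or fell (blue). The median goes from -0.35 to 0.23, and the share that fell from 15.8 to 2.45%.

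Subtracting the median of 20 bins of length and then of GC content left 1957 rises and 1164 falls, and 2686 calls were shared with those before. The median of the cartilage collagens became -1.67, with the same number fallen, 7. The sarcomere median was 1.08 and the adipocyte median 1.06 after removal. For mitochondrially encoded protein genes it became 1.23, with 12 rises. The ribosomal median shrank to -0.37 and that of the nuclear respiratory chain to -0.01. Whether the trend reflects the RNA, the library preparation or the tissue cannot be told apart with 1 library a side.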

How the data were processed

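RNA of 4 mouse libraries, 2 from the knee and 2 from the hip, was sequenced after poly-A selection, and the knee pair is described here. The authors aligned the reads and deposited raw counts per gene, without normalization. The submitters' processing notes name FastQC 0.11.3 and STAR 2.0, and the genome build and aligner version differ between these notes and the study's methods. Use of strand in the counting is not stated. The deposited counts held 34264456 (oil) and 38228029 (tamoxifen) counts, and a floor of 3 counts was 0.0932 and 0.0737 CPM (counts scaled to a common library size). Intervals and floors cover counting error only.

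Identifiers were matched to GENCODE vM39 (GRCm39), which gave a symbol for 50764 of 54838 (92.6%), holding 98.4% and 99.2% of counts. TMM factors came from edgeR 4.0.16 in R 4.3.3, and were 0.939 and 1.06. No test was possible with 1 library a side, so edgeR's test was not run. Genes needed at least 10 counts over the pair. Ratios, intervals and figures were made with Python 3.11.15, numpy 2.4.6, pandas 2.3.3, scipy 1.17.1 and matplotlib 3.10.9, and the code was tested on simulated data. The trend over length and GC content was removed as the median of 20 bins in 2 rounds.

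The 51 lists, the rule for named genes and the comparison itself were chosen with earlier results of these data known. Named were Cbfb and the Runx genes, the 15 largest rises and falls that reached 100 counts in either library, the 10 largest that reached 2000, the 10 most abundant genes, and in each list the 4 most abundant members and the largest change each way with at least 50 counts. The rankings of largest rises and falls left out immunoglobulin and T cell receptor segments and genes with clone or predicted names or without a unique symbol. Defining markers of cell types were also named. Genes outside this, such as those at the ends of a range or at a threshold, were named after their values were seen. A result among the largest rises is not reported here. Alternatives were DESeq2 1.42.0 size factors, total counts, TMM without the 20 most abundant genes, an added count of 1, other count minimums, other thresholds and trend removal. Promoter sequences came from RefSeq (GRCm38.p6).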

Additional observations from a re-analysis of the deposited data

Results flagged for a closer look

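In 4 lists the median log2 ratio was at least 0.5 in size and of opposite sign in the knee and the hip pair. The hip libraries were from Cbfb f/f mice, whose label gives the treatment as None, and from Tamoxifen-injected Cbfb f/f;Col2a1-CreERT mice, given as males of 6 weeks. Tendon and ligament genes had 0.55 in the knee and -0.98 in the hip. Genes of muscle calcium handling and energy had 0.87 in the knee and -0.77 in the hip. Schwann cell and nerve genes had 0.50 in the knee and -0.64 in the hip. Secreted Wnt inhibitors had 0.59 in the knee and -0.60 in the hip. After removal of the trend over length and GC, knee medians of tendon and ligament genes (0.497) and of Schwann cell and nerve genes (0.418) lay below 0.5. The differences were not tested, and with 1 library a side they could not be. The study's discussion describes the hip samples as cartilage alone and the knee samples as cartilage with bone. Joint, tissue taken, Cre line, age and kind of control differ together between the pairs and cannot be told apart.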

How the results depend on the processing

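No paired analysis was possible because each side of the pair is 1 library and the labels give no replicate numbers, and no library could be left out. Total count scaling raised the share of changed genes that rose to 71.3%, and moved the medians of MHC class II genes to 0.0089, Hippo genes to 0.42, glycolysis to 0.50, ribosomal proteins to -0.46 and Hox genes to 0.46. It also turned the sign of 8 list medians that lay close to 0. With 10 counts in each library, 2013 genes changed, 59.7% of them rose and the length trend was 0.67. With no count filter 53.8% rose. Removing the length and GC trend left 62.7% risen and a length trend of 0.00088, and moved the medians of matrix proteases to -0.35, MHC class II genes to -0.0485 and ribosomal proteins to -0.37. It turned the sign of 6 list medians. With a log2 ratio of at least 2, 1160 genes changed and 51.4% rose, and with the whole interval past the threshold 1376 genes changed and 62.4% rose. Of 278 named genes, total counts moved the ratio of 204 beyond its interval, trend removal 170 and DESeq2 size factors 28. Depth limits genes with few counts, and the spread between animals is unknown.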
